A study of Mus musculus with 36 samples.

Results

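The genes described here are 10 members of the muscle-wasting program, measured in the TA (tibialis anterior, a fast hindlimb muscle) and the soleus (a slow one) of WT and ∆Ig3-MuSK mice. They were the ubiquitin ligase genes Fbxo32, Trim63, Fbxo30, Fbxo31, Fbxo40 and Trim54, the FoxO factor genes Foxo1, Foxo3 and Foxo4, and Klf15. They were picked by symbol, as the rows of both count tables whose Ensembl gene ID carries one of these names, and they made up 10 of the 51912 IDs in the tables. Each of the 4 groups, one per muscle and genotype, had 9 RNA-seq libraries of whole muscle from C57BL/6 mice aged 3 months. The ∆Ig3-MuSK mice are homozygous for a CRISPR deletion of the exons that encode the BMP-binding Ig3 domain of the kinase MuSK. The deletion is in the germline and so is carried by every cell of the animal, and the labels list no other allele and no treatment for either genotype. The whole-muscle RNA comes from fibers together with vessels, nerve, connective tissue and blood, so that fewer cells of a type and less RNA per cell cannot be told apart. The question was whether the genes that drive protein breakdown in wasting muscle differed between genotypes or between muscles.

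When growth signaling through IGF1 and Akt is high, FoxO transcription factors are phosphorylated and kept out of the nucleus. When it drops, as in fasting, denervation or disuse, they enter the nucleus and switch on the atrophy ligases, above all Fbxo32 (atrogin-1 or MAFbx) and Trim63 (MuRF1). F-box proteins such as Fbxo32 and Fbxo30 are the substrate-binding subunits of SCF ubiquitin ligases, whereas the TRIM proteins are RING ligases that sit on the contractile apparatus. Fbxo30 (MUSA1) is known as the ligase that BMP signaling holds down in muscle. Fbxo40 is known for its action on the insulin receptor substrate IRS1, and Klf15 is a glucocorticoid-induced factor that drives amino acid breakdown. Transcript levels do not report the location or the activity of FoxO proteins.

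The genes lie apart from each other in the genome (GRCm38). Fbxo32 (ENSMUSG00000022358) is at chr15:58175879-58214932 on the minus strand, and Trim63 (ENSMUSG00000028834) is at chr4:134315120-134329629 on the plus strand. Fbxo30 (ENSMUSG00000047648) is at chr10:11281330-11298052, Fbxo31 (ENSMUSG00000052934) at chr8:121549440-121578806, Fbxo40 (ENSMUSG00000047746) at chr16:36963460-36990467 and Trim54 (ENSMUSG00000062077) at chr5:31116712-31137630. Foxo1 (ENSMUSG00000044167) is at chr3:52268336-52353221, Foxo3 (ENSMUSG00000048756) at chr10:42181841-42276755, Foxo4 (ENSMUSG00000042903) at chrX:101254528-101260873 and Klf15 (ENSMUSG00000030087) at chr6:90462576-90475238. The libraries carry no strand information, and the exons of 3 of these genes overlap a gene on the opposite strand. Fbxo32 shares 186 bp with Gm15943, Foxo1 shares 674 bp with Gm20402, and Trim54 shares 382 of its 1436 bp of exon with Gm15469. Reads from those stretches cannot be assigned to either partner, so the values of these 3 genes carry that uncertainty.

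Sequences upstream of the start were in the RefSeq promoter set (GRCm38.p6) for 8 of the 10 genes. The 250 bases before the start were searched on both strands for the FoxO motif TGTTTAC, the E-box CACGTG, the glucocorticoid receptor motif AGAACA and the BMP-Smad motif GGCGCC. The windows of Trim63 and Klf15 are shown because Trim63 was the only one of the 8 with the FoxO letters and Klf15 the only one with the E-box or the BMP-Smad letters. Capitals mark the motifs. The Trim63 window is chr4:134314870-134315119 and the Klf15 window chr6:90462326-90462575, both on the plus strand.
Trim63: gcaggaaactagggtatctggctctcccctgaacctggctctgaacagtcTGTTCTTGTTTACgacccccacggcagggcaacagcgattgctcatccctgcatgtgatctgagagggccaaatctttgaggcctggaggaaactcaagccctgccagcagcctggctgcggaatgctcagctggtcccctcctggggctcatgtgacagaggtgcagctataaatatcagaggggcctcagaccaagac
Klf15: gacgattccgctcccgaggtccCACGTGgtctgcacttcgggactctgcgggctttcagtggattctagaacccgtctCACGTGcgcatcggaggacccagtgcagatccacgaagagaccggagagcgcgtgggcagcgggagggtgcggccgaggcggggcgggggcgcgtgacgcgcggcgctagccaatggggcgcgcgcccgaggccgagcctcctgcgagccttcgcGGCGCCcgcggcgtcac
In the Trim63 window the glucocorticoid receptor motif, read on the minus strand, starts at -200 and is followed directly by the FoxO letters at -194. The Klf15 window holds E-boxes at -228 and -172 and the BMP-Smad letters at -17. The same letters occurred in 3.17% (FoxO), 6.02% (E-box), 16.1% (glucocorticoid receptor motif) and 9.59% (BMP-Smad) of the 32851 windows of this length. AGAACA was also found upstream of Trim54 and in 1 of 2 windows that the set holds for Fbxo40, the one before an alternative start that lies inside the gene. A match of letters is a description and no evidence of binding.

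The reads counted on genes came to 43492062 to 78660422 per library. TA libraries were the deeper ones in general, with medians of 66259327 in WT and 65772531 in ∆Ig3-MuSK against 45371395 and 51110940 in the soleus. Each of the 10 genes had at least 492 counts in every library. Slow-fiber markers were higher in the soleus for 6 of 6 genes and fast-fiber markers lower for 6 of 6, as the muscle labels say. Among 37 marker genes of 10 cell types, 0 were called between genotypes in the TA, against 0.0149% of all genes tested. In the soleus 1 was called, against 0.952%. It was the smooth muscle actin gene Acta2, which was lower (log2 fold change -0.38 ± 0.09 SE, edgeR adjusted p = 0.0496). Without the high-Foxo1 pair described next, Acta2 stood at -0.44 (adjusted p = 0.079). The median log2 fold changes of the lists ran from -0.17 (adipocyte) to 0.19 (slow fibers) in the TA. In the soleus they ran from -0.36 (fibroblast and tendon) to 0.57 (adipocyte), so few calls do not show that the cell types were alike. Musk averaged 4.25 ± 0.948 CPM in WT TA and 3.09 ± 0.391 in ∆Ig3-MuSK TA, and 15.2 ± 1.82 and 11.3 ± 3.29 in the soleus (SD, n = 9 each). A whole-gene count also covers exons outside the deletion, so it does not check the genotype labels. A pair of ∆Ig3-MuSK label numbers stood apart from the other libraries in both muscles for Foxo1 (TA replicates 5 and 6, soleus replicates 4 and 5). They are called the high-Foxo1 pair, and genotype differences that rest on them are given with and without them. Their soleus Musk levels, 15.4 and 17.5 CPM, lay within the WT soleus range of 12.5 to 18.4 CPM and above the 8.07 to 11.9 CPM of the other 7 mutant soleus libraries, whereas their TA levels (3.15 and 3.13 CPM) lay within those of the other mutant TA libraries (2.62 to 4.01 CPM). The genotype difference of Musk in the soleus was -0.44 with the pair (edgeR adjusted p = 0.0978) and -0.64 without it (adjusted p = 0.0118). In the TA it was -0.46 (adjusted p = 0.135) and -0.47 (adjusted p = 0.361). Whether the genotype labels of the pair hold was not tested.

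Levels are given in CPM, counts scaled to one common library size with TMM factors over the 36 libraries, and between genes only as CPM per kb of exon. Per kb of exon, Trim54 was the highest of the 10 genes in WT TA, at 192 ± 9.77 CPM per kb (SD, n = 9, as for all group values). Trim63 followed at 71.0 ± 11.6 CPM per kb, and its range of mean ± SD overlapped those of Foxo4 and Fbxo32. Foxo4 (55.0 ± 4.73), Fbxo32 (50.4 ± 12.01) and Fbxo40 (48.3 ± 2.66) came next, with overlapping ranges of mean ± SD. Fbxo31 stood at 26.5 ± 3.05 and Klf15 at 16.2 ± 1.89. The 3 least abundant genes were Foxo3 at 2.76 ± 0.564, Fbxo30 at 2.08 ± 0.154 and Foxo1 at 1.80 ± 0.396 CPM per kb, and neighbours in that order overlapped within 1 SD. Among the FoxO members described here, Foxo4 was thus the most abundant per kb of exon in WT TA, above Foxo1 and Foxo3. In WT soleus the top was again Trim54 at 172 ± 9.42 CPM per kb, followed by Fbxo40 (52.5 ± 4.36), Trim63 (50.2 ± 8.77) and Fbxo32 (46.6 ± 7.04), which overlapped, and by Foxo4 at 34.2 ± 3.64.

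**Figure D1:**
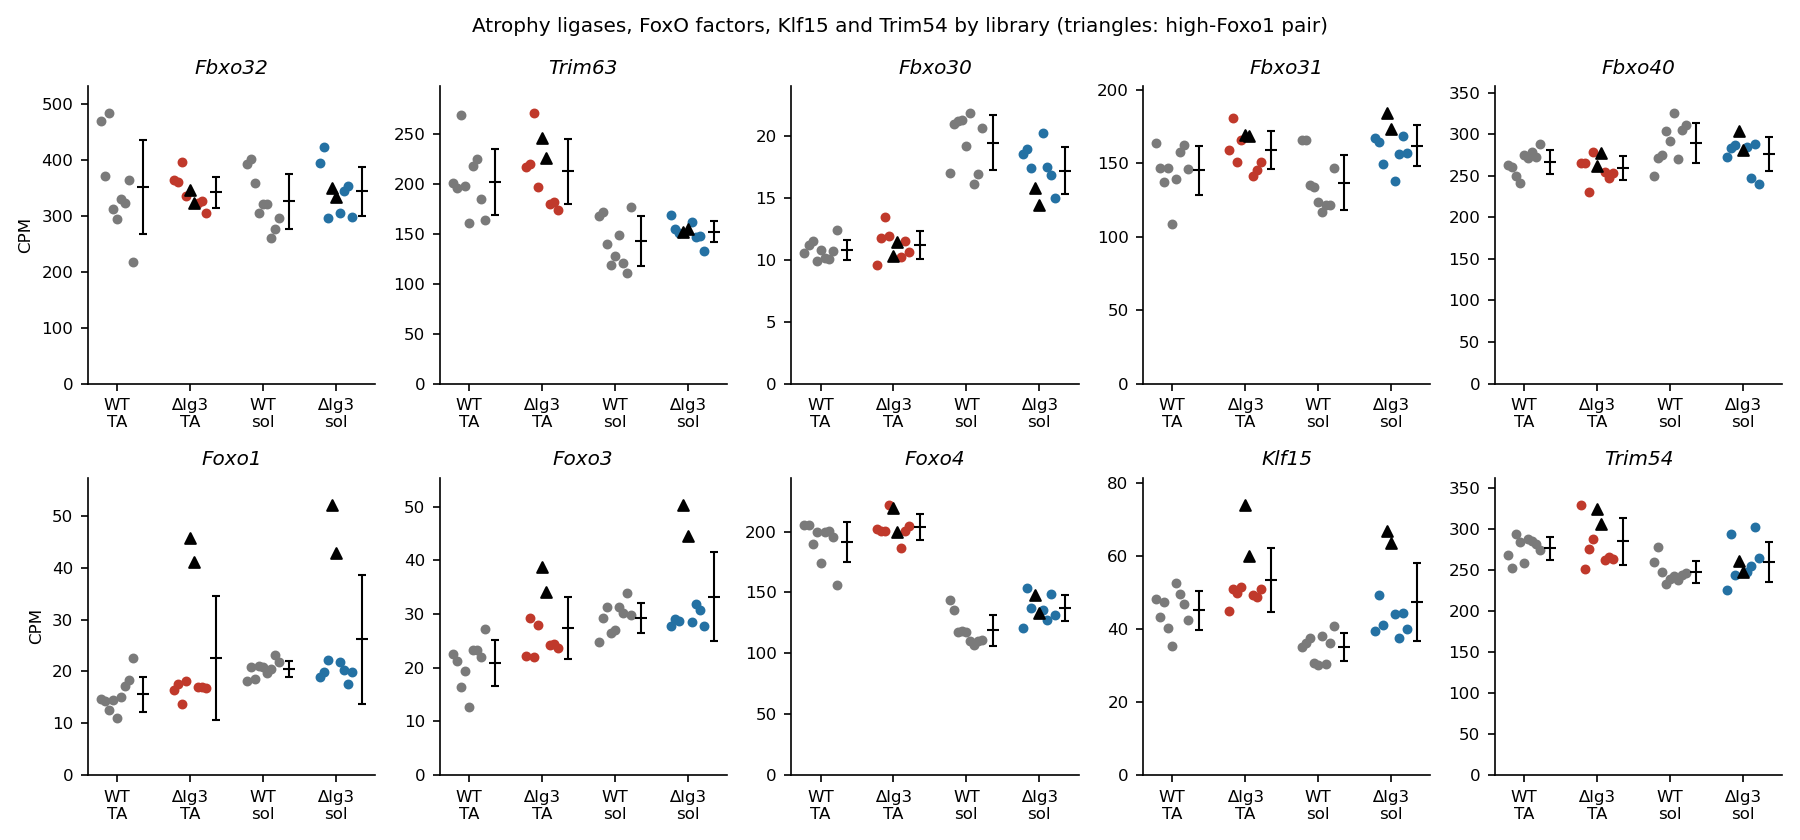
Level of each of the 10 genes in CPM (linear axis from 0) in the 36 libraries, by group, with the mean and SD of the 9 libraries beside the points; "sol" is soleus and "∆Ig3" is ∆Ig3-MuSK. The triangles, the high-Foxo1 pair of ∆Ig3-MuSK label numbers, reach 41.1 to 52.2 CPM for Foxo1, above all other libraries, but lie within their groups for Fbxo32 and Trim63.

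The genotype contrast asked whether loss of the Ig3 domain changed the atrophy program in either muscle. None of the 10 genes was called in the TA or in the soleus, where a call needs an adjusted p under 0.05 and a 1.2-fold change in edgeR's quasi-likelihood test. The background was low in both muscles: 0.0149% of the 20075 genes tested were called in the TA and 0.952% of the 19439 tested in the soleus. DESeq2 and limma-voom called 0 members in the TA and 1 each, Klf15, in the soleus. Their own backgrounds were higher. Of all genes, DESeq2 called 225 of 20075 in the TA and 486 of 19439 in the soleus, and limma-voom 150 and 653. At an unadjusted p under 0.05 stood 3 members in the TA, against 24.1% of all genes, and 4 in the soleus, against 18.5%. The members had a median log2 fold change of 0.08 for the TA and 0.13 for the soleus, with medians of 0.00 over all genes tested in both.

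Fbxo32 and Trim63, the classic atrogenes, had similar levels in both genotypes. Fbxo32 ranged from 217 through a median of 330 to 483 CPM in WT TA and from 305 through 334 to 395 CPM in ∆Ig3-MuSK TA. The mutant range lay wholly within the WT range. In the soleus Fbxo32 ran from 259 through 320 to 401 CPM in WT and from 295 through 343 to 423 CPM in the mutant. Fbxo32 differed by -0.04 on the log2 scale for the TA (95% interval -0.27 to 0.19) and by 0.07 for the soleus (-0.10 to 0.24). A 1.2-fold change lies near the edge of these intervals.

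Trim63 ran from 161 through 198 to 269 CPM in WT TA and from 173 through 217 to 271 CPM in ∆Ig3-MuSK TA. In the soleus the range was 110 through 139 to 177 CPM in WT and 133 through 152 to 169 CPM in the mutant, and 8 of the 9 mutant libraries stood above the WT mean. The groups overlapped in both muscles. Trim63 differed by 0.08 on the log2 scale for the TA (95% interval -0.13 to 0.28) and by 0.08 for the soleus (-0.08 to 0.25), with adjusted p values of 0.639 and 0.606 in edgeR's quasi-likelihood test.

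The other F-box ligases moved by small amounts. Fbxo30 ran from 9.90 through 10.7 to 12.4 CPM in WT TA and from 9.60 through 11.4 to 13.4 CPM in the mutant TA. In the soleus it ran from 16.2 through 20.6 to 21.9 CPM in WT and from 14.4 through 17.4 to 20.2 CPM in the mutant, with 8 of 9 mutant libraries below the WT mean. The soleus log2 fold change of Fbxo30 was -0.19 ± 0.07 SE, at an unadjusted p = 0.0129 and an adjusted p = 0.15 (edgeR), and it was -0.15 with an adjusted p = 0.276 when the high-Foxo1 pair were left out.

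Fbxo31, the F-box subunit known for targeting cyclin D1, was higher in the mutant soleus in every one of the 9 libraries than the WT mean. It ran from 117 through 134 to 166 CPM in WT soleus and from 138 through 164 to 184 CPM in ∆Ig3-MuSK soleus, so that the groups overlapped. Fbxo31 had a log2 fold change of 0.23 ± 0.07 SE in the soleus (edgeR adjusted p = 0.0881) and 0.13 ± 0.07 in the TA (adjusted p = 0.253). It was 0.19 in the soleus without the high-Foxo1 pair (adjusted p = 0.177), and it passed both limits when WT soleus replicate 1 or replicate 2 was left out (0.27 in each case, adjusted p = 0.0275 and 0.0357).

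Fbxo40 and Trim54 were among the steadiest of the 10. Their within-group SD over the 36 libraries was 0.10 and 0.11 on the log2 scale. Their coefficients of variation were 5.49% and 5.08% in WT TA and 8.31% and 5.47% in WT soleus. In ∆Ig3-MuSK they were 5.70% and 10.1% in the TA and 7.40% and 9.40% in the soleus. Fbxo40 differed between genotypes by -0.04 (95% interval -0.14 to 0.06) for the TA and by -0.08 (-0.19 to 0.03) for the soleus. Trim54, which builds muscle RING-finger complexes along the sarcomere, differed by 0.05 (-0.07 to 0.17) for the TA and by 0.06 (-0.04 to 0.16) for the soleus. Its overlap partner Gm15469 moved by -0.01 and 0.09 in the same contrasts.

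Foxo4 had the narrowest within-group spread of the FoxO members described here. It ran from 156 through 199 to 206 CPM in WT TA and from 187 through 200 to 222 CPM in ∆Ig3-MuSK TA. In the soleus it ran from 107 through 117 to 144 CPM in WT and from 121 through 135 to 154 CPM in the mutant, where all 9 libraries stood above the WT mean and 3 above the WT maximum. The soleus log2 fold change of Foxo4 was 0.20 ± 0.06 SE (edgeR adjusted p = 0.0781) and stayed at 0.18 without the high-Foxo1 pair (adjusted p = 0.138). In the TA it was 0.09 (95% interval -0.03 to 0.21).

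Foxo1 ran from 10.99 through 14.6 to 22.6 CPM in WT TA and from 13.6 through 17.0 to 45.8 CPM in ∆Ig3-MuSK TA. In the soleus it ran from 18.1 through 20.8 to 23.2 CPM in WT and from 17.6 through 20.2 to 52.2 CPM in the mutant. The medians of the genotypes were close in both muscles, and the high tail came from the high-Foxo1 pair alone. For Foxo1 the TA difference was 0.54 ± 0.22 SE on the log2 scale (adjusted p = 0.169) and the soleus difference 0.34 ± 0.19 (adjusted p = 0.338, edgeR), and it dropped to 0.09 and -0.05 without those label numbers.

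Foxo3 ran from 12.7 through 22 to 27.3 CPM in WT TA and from 21.98 through 24.4 to 38.9 CPM in the mutant TA, where all 9 libraries lay above the WT mean. In the soleus it ran from 24.9 through 29.8 to 33.8 CPM in WT and from 27.8 through 29.1 to 50.4 CPM in ∆Ig3-MuSK. The TA log2 fold change of Foxo3 was 0.39 ± 0.13 SE (adjusted p = 0.155) and that of the soleus 0.17 ± 0.11 (adjusted p = 0.429, edgeR). Without the high-Foxo1 pair the TA value was 0.25 (adjusted p = 0.361) and the soleus value -0.02 (adjusted p = 0.886).

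Klf15 was the member nearest to a genotype call. It ran from 30.1 through 36.1 to 40.9 CPM in WT soleus and from 37.6 through 44.1 to 66.9 CPM in ∆Ig3-MuSK soleus, where all 9 libraries exceeded the WT mean and 6 exceeded the WT maximum. The log2 fold change of Klf15 in the soleus was 0.42 ± 0.11 SE (95% interval 0.20 to 0.64), at an unadjusted p = 0.000656 and an adjusted p = 0.0533 in edgeR's quasi-likelihood test. DESeq2 called it at an adjusted p = 0.00862 and limma-voom with quality weights at 0.0264, whereas an edgeR fit with the library total as a covariate gave 0.41 and an adjusted p = 0.414. Library totals were themselves higher in the ∆Ig3-MuSK soleus, with medians of 51110940 against 45371395 counts.

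In the TA, Klf15 ran from 35.4 through 46.7 to 52.6 CPM in WT and from 45.0 through 51.1 to 74.1 CPM in the mutant, with 8 of 9 libraries above the WT mean. The log2 fold change there was 0.24 ± 0.09 SE (adjusted p = 0.163, edgeR). Without the high-Foxo1 pair the difference of Klf15 shrank to 0.26 in the soleus (unadjusted p = 0.00111, adjusted p = 0.103) and to 0.13 in the TA (adjusted p = 0.364).

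**Figure D2:**
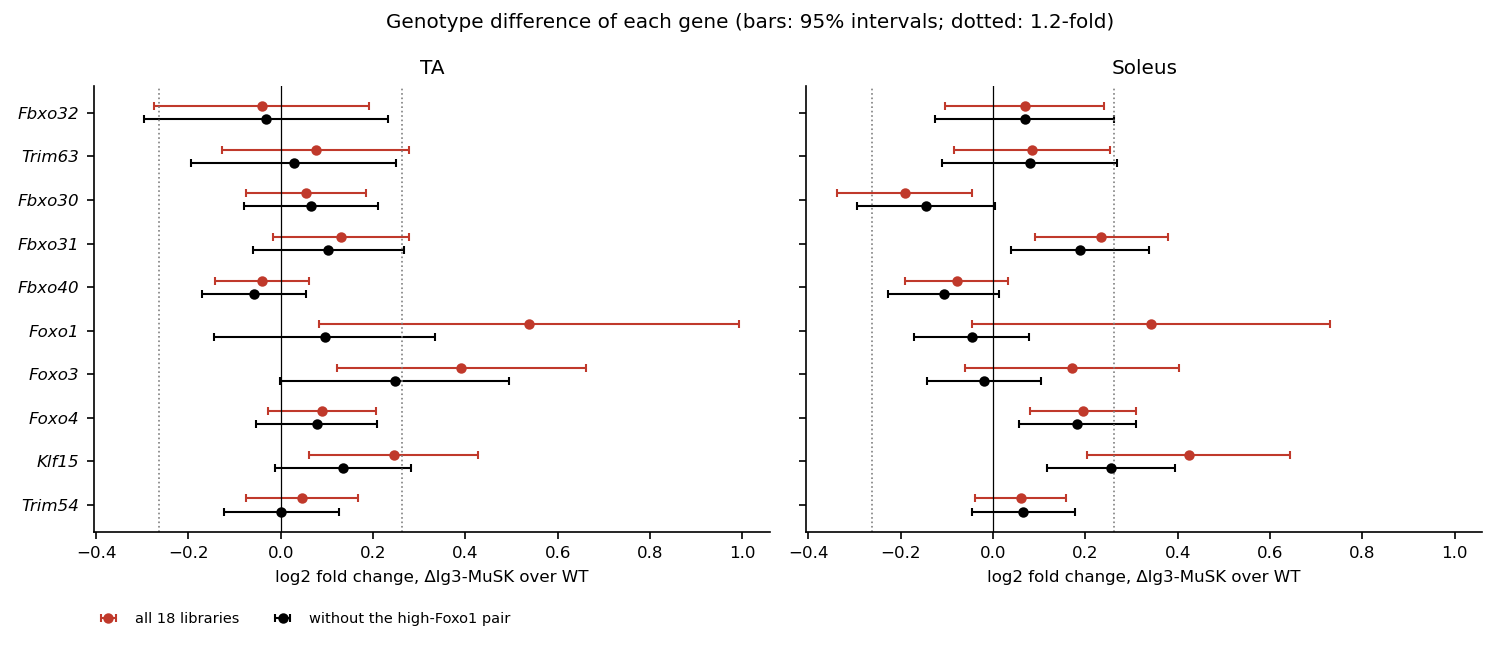
Log2 fold change of ∆Ig3-MuSK over WT for each gene in the TA (left) and the soleus (right), with 95% intervals from edgeR's quasi-likelihood fits and dotted lines at 1.2-fold. Red points use all 18 libraries of a muscle and black points the 16 without the high-Foxo1 pair: Foxo1 in the TA moves from 0.54 to 0.09, whereas Fbxo32 stays near 0 in both fits.

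Each library carries a number in its label, and 16 of these numbers appear on a TA and a soleus library, 8 for each genotype. The labels do not say whether such a number marks an animal. The high-Foxo1 pair are 2 such ∆Ig3-MuSK numbers, one on TA replicate 5 and soleus replicate 4 and the other on TA replicate 6 and soleus replicate 5, and values are given in that order. They were singled out after their Foxo1 values had been seen, so what follows on Foxo1 is a description. Foxo1 stood at 45.8 and 41.1 CPM in the TA libraries of the pair, against 13.6 to 18.2 CPM in the other 7 mutant TA libraries. In the soleus it stood at 52.2 and 42.8 CPM, against 17.6 to 22.2 CPM. The antisense partner Gm20402 was high in the same libraries, at 10.2 and 8.73 CPM in the TA against 2.26 to 3.80 in the others.

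The same label numbers were also the 2 highest of 18 in both muscles for Foxo3 and Klf15. Foxo3 stood at 38.9 and 34.1 CPM in the TA and at 50.4 and 44.5 CPM in the soleus. Klf15 stood at 74.1 and 59.9 CPM in the TA and at 66.9 and 63.5 CPM in the soleus. Fbxo32 and Trim63 showed no such pattern. Since Foxo1 chose the pair, only the other 9 members bear on this count, and Foxo3 and Klf15 were those with the pair as the 2 highest in both muscles. Over all 20841 genes with a value, 203 (0.974%) had the pair as the 2 highest in both muscles and 74 (0.355%) as the 2 lowest.

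Other genes stood out in the same libraries. Of 13 glucocorticoid response genes, 4 were highest in both muscles in the high-Foxo1 pair: Fkbp5, a chaperone induced by the glucocorticoid receptor, Per1, Zbtb16 and Glul, the glutamine synthetase gene. Fkbp5 reached 105 and 94.9 CPM in the TA against 17.2 to 29.3 in the other 7 mutant libraries, and 79.2 and 63.0 against 16.5 to 26.3 in the soleus. Of 15 circadian clock genes, 7 were highest in both muscles (Tef, Hlf, Per1, Per2, Per3, Cry2 and Ciart) and 2 were lowest (Arntl and Npas2). Per1 is on both of these lists. Of 20 FoxO target genes, 0 were highest in both muscles and 0 were lowest. Of 20 inputs and partners of FoxO, 0 were highest in both muscles and 1, Irs1, was lowest. Of 10 amino acid catabolism genes, 1, Prodh, was highest in both and 0 were lowest.

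The slow-fiber marker sums of the high-Foxo1 pair lay within the range of the other mutant libraries in both muscles (44.4 and 46.5 against 37.7 to 129 CPM in the TA, and 23573 and 17986 against 16524 to 24386 CPM in the soleus). Both libraries lay inside that range for 5 of 10 marker lists in the TA and 9 of 10 in the soleus. The endothelial sums were below that range for both TA libraries (155 and 158 CPM against 168 to 197) and for 1 of the soleus libraries (182 CPM against 194 to 258). The total counts of these libraries, 46936855 to 67848411, lay within those of their groups. The part that clock genes, glucocorticoid genes or the collection of these muscles play in the Foxo1, Foxo3 and Klf15 values was not tested.

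**Figure D3:**
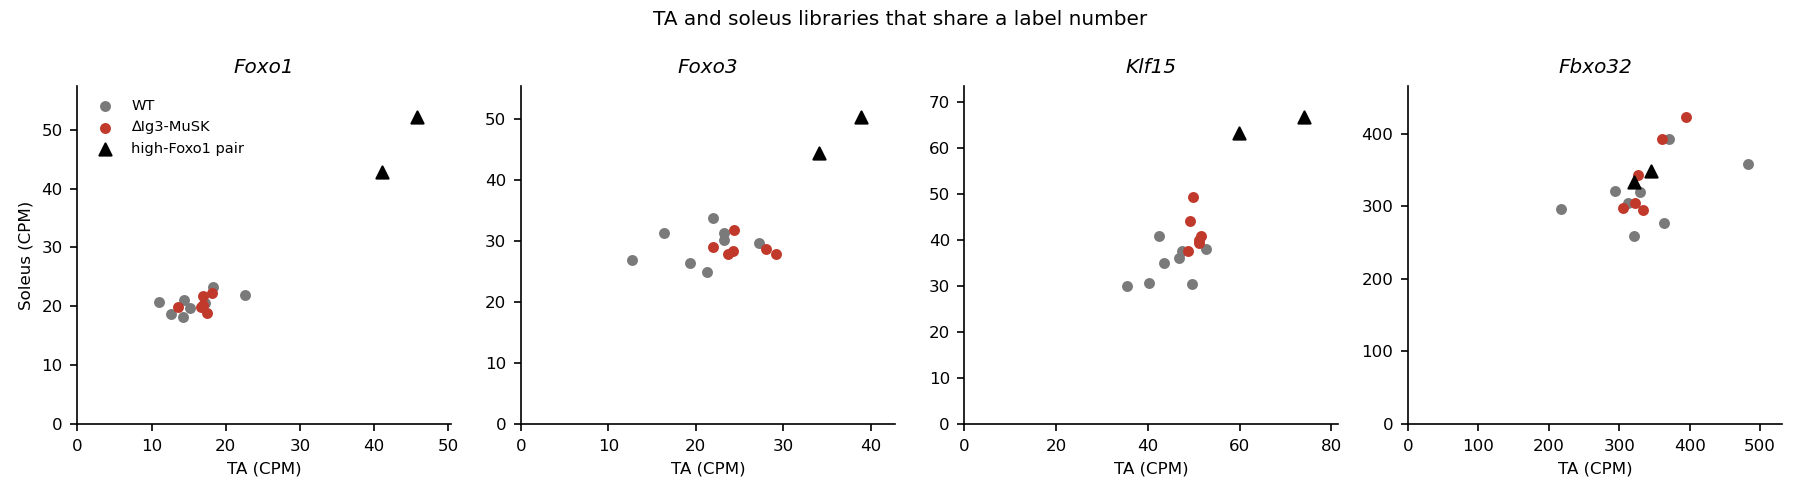
Soleus level (y axis, CPM) against TA level (x axis, CPM) for the 16 label numbers that have both muscles, for Foxo1, Foxo3, Klf15 and Fbxo32. The triangles, the high-Foxo1 pair, stand apart for Foxo1 (41.1 and 45.8 CPM in the TA) and lie inside the cloud for Fbxo32.

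Since Foxo1 falls into separate clusters, the agreement between muscles was computed over the 14 other label numbers. For Fbxo32 the Pearson r was 0.50 and Spearman's rho 0.47, with group means subtracted (permutation p = 0.0614 and 0.0987). For the 10 members the smallest adjusted p was 0.594 by Pearson's r and 0.494 by Spearman's rho, over 10 tests each. Klf15 had r = 0.35 and rho = 0.27 over the same numbers. With the high-Foxo1 pair included it had r = 0.71 and rho = 0.65 (permutation adjusted p = 0.0216 and 0.0324), and so its relation rests on them. Foxo3 had r = 0.22 and rho = 0.23 without the pair. With the pair it had r = 0.59 and rho = 0.52 (permutation adjusted p = 0.0361 and 0.121).

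Whether the genotype difference itself differed between muscles was tested with an interaction term over the 36 libraries. None of the 10 genes passed, and neither did any of the 20841 genes tested (0% called). At an unadjusted p under 0.05 stood 1 member, Fbxo30, against 24.9% of all genes. Its genotype difference was lower by 0.23 ± 0.10 SE on the log2 scale in the soleus than in the TA (unadjusted p = 0.0212, adjusted p = 0.14). DESeq2 called 0 members for the interaction and 1049 of all genes. For Klf15 the interaction was 0.19 (95% interval -0.10 to 0.48), for Fbxo32 0.12 (-0.18 to 0.42) and for Trim63 0.02 (-0.25 to 0.29).

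The muscle contrast gave larger differences. In WT, 5 of the 10 genes were called between soleus and TA, against 57.5% of all 20841 genes. In ∆Ig3-MuSK mice 4 were called, against 56.1%. These shares are near the background. TA and soleus were deposited as separate tables, and muscle cannot be told apart from how the libraries of each table were made.

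Fbxo30, the BMP-restrained ligase, was the member with the largest gain in the soleus. In WT it ran from 16.2 to 21.9 CPM in the soleus and from 9.90 to 12.4 CPM in the TA. In the mutant it ran from 14.4 to 20.2 CPM in the soleus and from 9.60 to 13.4 CPM in the TA. Soleus exceeded TA by 0.85 ± 0.07 SE in WT on the log2 scale (edgeR adjusted p = 1.44e-13) and 0.62 ± 0.07 in ∆Ig3-MuSK (adjusted p = 5.69e-10).

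Foxo4 went the other way. In WT it stood at 107 to 144 CPM in the soleus against 156 to 206 CPM in the TA. In the mutant it stood at 121 to 154 CPM against 187 to 222 CPM. The log2 fold change was -0.69 ± 0.06 SE in WT (adjusted p = 3.96e-13) and -0.57 ± 0.06 in the mutant (adjusted p = 5.50e-11). Foxo3 was higher in the soleus, by 0.49 ± 0.12 in WT (adjusted p = 0.000798) and 0.28 ± 0.12 in the mutant (adjusted p = 0.0455). The mutant call of Foxo3 was kept in 2 of 7 alternative fits, and in 10 of 18 fits that left out 1 mutant library each. Among the fits that lost it were those without the high-Foxo1 pair (0.24, below 1.2-fold) and with the label number as a block (0.25).

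Trim63 was lower in the soleus in both genotypes, by 0.50 ± 0.09 SE on the log2 scale in WT (adjusted p = 1.54e-05) and 0.48 ± 0.09 in the mutant (adjusted p = 2.92e-05). The mutant soleus libraries stood at 133 to 169 CPM and the mutant TA libraries at 173 to 271 CPM. Klf15 was lower in WT soleus (-0.36 ± 0.10, adjusted p = 0.00167), and in the mutant its difference was -0.17 ± 0.10 (adjusted p = 0.124). Fbxo32 did not differ detectably between muscles, at -0.11 in WT (95% interval -0.32 to 0.10) and 0.01 in the mutant (-0.20 to 0.22).

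Foxo1 was not called in WT in the fit over the 36 libraries (0.40 ± 0.21, adjusted p = 0.0963). It was called in a fit of the 18 WT libraries alone, with the same difference of 0.40 and an adjusted p = 0.00138, and when the high-Foxo1 pair were left out (adjusted p = 0.000157) or the label number was used as a block (0.41, adjusted p = 0.000904). In ∆Ig3-MuSK the Foxo1 difference was 0.21 ± 0.21 (adjusted p = 0.381), and it was called without the high-Foxo1 pair (0.27, adjusted p = 0.0178). Fbxo40 (0.12) and Trim54 (-0.16) had adjusted p values of 0.0383 and 0.0112 in WT and stayed below 1.2-fold. Gm15469, which overlaps Trim54, was lower in WT soleus by 0.28 (adjusted p = 0.000159).

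**Figure D4:**
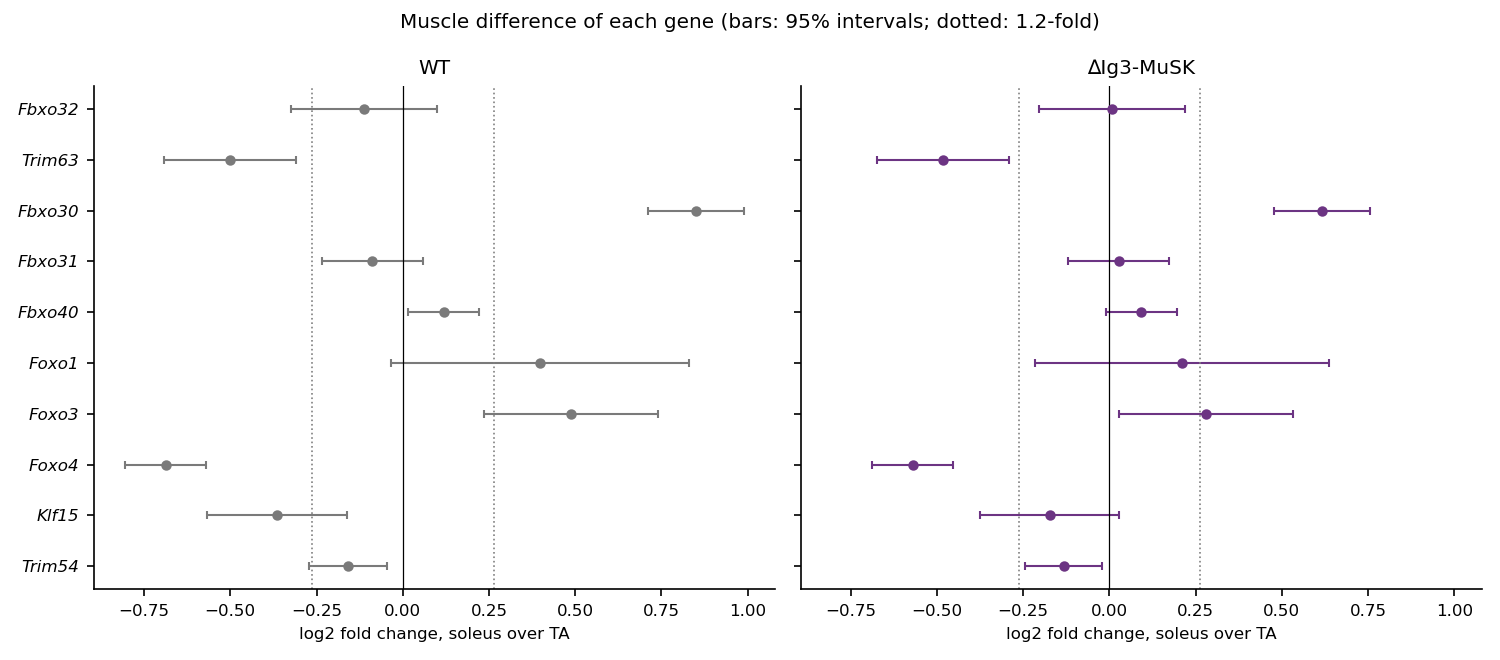
Log2 fold change of soleus over TA for each gene in WT (left) and ∆Ig3-MuSK (right) with 95% intervals from 1 edgeR fit over 36 libraries and dotted lines at 1.2-fold. Fbxo30 lies at 0.85 and 0.62 and Foxo4 at -0.69 and -0.57.

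The members were next compared with each other across the 18 libraries of each muscle, with the genotype means subtracted, for 45 pairs in each muscle and 90 in all. Fbxo32 and Trim63 tracked each other in part. In the TA their Pearson r was 0.64 (permutation p = 0.00423, adjusted p = 0.0505 over the 90) and Spearman's rho 0.63 (p = 0.00839, adjusted p = 0.0839). In the soleus r was 0.54 (p = 0.0384, adjusted p = 0.182) and rho 0.48 (p = 0.0621, adjusted p = 0.232). Without the 2 libraries farthest from the median of Fbxo32, r was 0.44 (TA) and 0.54 (soleus), and neither kept an unadjusted permutation p under 0.05 (0.0669 and 0.0633). The relation therefore did not pass the correction in either muscle.

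**Figure D5:**
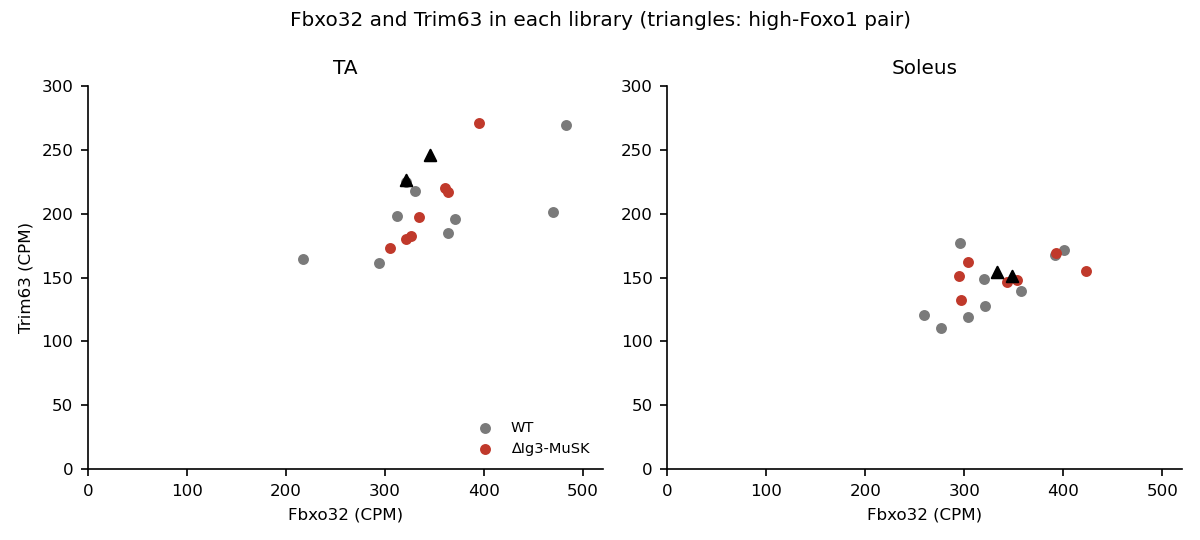
Trim63 against Fbxo32 in CPM in the 18 TA libraries (left) and the 18 soleus libraries (right), by genotype (grey WT, red ∆Ig3-MuSK). The points spread upward to the right, with r = 0.64 in the TA and 0.54 in the soleus once genotype means are subtracted.

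Of the 90 pairs, 5 had an adjusted p under 0.05 by Pearson's r, 1 by Spearman's rho, and 1 once the high-Foxo1 pair were left out. Foxo4 and Trim54 correlated in the soleus (r = 0.66, adjusted p = 0.0337; rho = 0.51, adjusted p = 0.172; r = 0.67 without the 2 libraries farthest from the median of Foxo4). In the TA, Fbxo31 and Foxo3 had r = 0.75 (adjusted p = 0.0337; rho = 0.70, adjusted p = 0.0589; r = 0.59 without the 2 farthest). Foxo3 and Klf15 had r = 0.76 there (adjusted p = 0.0337; rho = 0.68, adjusted p = 0.0623) but 0.46 without the 2 farthest. For Foxo1 and Foxo3 no pooled r is given because the libraries fall into clusters. Over the 16 libraries outside the high-Foxo1 pair their r was 0.86 for the TA (adjusted p = 0.0243) and 0.31 for the soleus (adjusted p = 0.504).

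The genes most like each lead member were sought over the 36 libraries with group means subtracted, among 15499 genes with a mean of at least 1 CPM. For Fbxo32 they were Ddrgk1 (r = 0.78), its overlap partner Gm15943 (0.77) and Adipor1 (0.77). For Trim63 they were Ncl (0.69), Map1lc3b (0.67) and Gm6055 (0.67). For Klf15 they were Glul (0.80), Usp2 (0.79) and Rab27a (0.78), and these fell to 0.54, 0.52 and 0.50 without the high-Foxo1 pair, whereas those of Fbxo32 were 0.80, 0.80 and 0.78. These r values describe shared variation among libraries and are not tested.

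The wider pathway was followed in 9 gene lists. Of 20 other ubiquitin ligases described in muscle, 0 were called in either muscle. The nearest were Cblb in the TA (0.44, adjusted p = 0.0933), which encodes the ligase that degrades IRS1, and Fbxo21 (0.29, adjusted p = 0.149), and Wwp1 (0.21, adjusted p = 0.112) and Smurf1 (-0.11, adjusted p = 0.165) in the soleus. The median log2 fold change of that list was 0.09 (TA) and -0.01 (soleus). Of the 12 SCF core and neddylation genes, 0 were called, with medians of -0.14 in the TA and 0.06 in the soleus. Rbx1, the RING subunit of SCF ligases (-0.22, adjusted p = 0.156), and the E2 enzyme gene Cdc34 (-0.21, adjusted p = 0.163) led in the TA. Cand1, the SCF exchange factor (-0.20, adjusted p = 0.0701), and Nae1 (0.11, adjusted p = 0.104) led in the soleus.

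Upstream of FoxO, 0 of 20 inputs and partners were called in either muscle. In the TA the lowest p values belonged to Sgk1, a kinase that phosphorylates FoxO (-0.36, adjusted p = 0.145), and the IGF1 receptor gene Igf1r (0.44, adjusted p = 0.145). In the soleus they belonged to the deacetylase gene Sirt1 (0.20, adjusted p = 0.0864) and the growth factor gene Igf1 (-0.45, adjusted p = 0.0903). The medians were 0.10 in the TA and -0.07 in the soleus. Downstream, 0 of 20 FoxO target genes were called, with medians of 0.04 and 0.05. Atg12 (-0.17) and the cell cycle inhibitor gene Cdkn1a (-0.43) came first in the TA, both with an adjusted p = 0.163. In the soleus Ccng2 had an adjusted p = 0.039 but a log2 fold change of 0.23, below 1.2-fold, and Map1lc3b, the autophagosome protein gene, reached 0.19 (adjusted p = 0.0712).

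Of 13 glucocorticoid response genes, 1 was called. Arrdc2 rose in the soleus by 1.43 ± 0.34 SE on the log2 scale (adjusted p = 0.0405), and by 0.82 without the high-Foxo1 pair (adjusted p = 0.109). The median of the list was 0.11 (TA) and 0.40 (soleus), and -0.08 and 0.06 without those numbers. Of 10 amino acid catabolism genes tested 0 were called, the nearest being Bckdhb (0.17, adjusted p = 0.0814) and Bckdha (0.20, adjusted p = 0.105) in the soleus, subunits of the branched-chain keto acid dehydrogenase, and Bckdk (-0.13, adjusted p = 0.161) and Prodh (0.36, adjusted p = 0.201) in the TA. Of 9 denervation response genes tested, 0 were called. Hdac4 stood at 0.26 (adjusted p = 0.058) and Myh3 at -0.24 (adjusted p = 0.0806) in the soleus, and Hdac4 at 0.20 in the TA. The medians of that list were 0.11 in the TA and -0.28 in the soleus. At an unadjusted p under 0.05, 4 of its genes were lower and 1 higher in the soleus, against 18.5% of all genes. Among 10 immediate early genes 0 were called, with medians of -0.14 in the TA and -0.46 in the soleus. In the soleus 5 of these were lower and 0 higher at an unadjusted p under 0.05, against 18.5% of all genes in either direction. Egr2 (-0.86, adjusted p = 0.058) and Fosb (-1.14, adjusted p = 0.0745) came nearest in the soleus, and Atf3 (-0.73, adjusted p = 0.163) and Nr4a1 (0.35, adjusted p = 0.234) in the TA.

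The circadian clock list was the one with many calls. Of its 15 genes, 11 were called in the soleus, against 0.952% of all genes, and 1, Dbp, in the TA. Dbp, the clock output factor, rose by 0.90 ± 0.11 SE for the TA (adjusted p = 0.0012) and 1.23 ± 0.19 for the soleus (adjusted p = 0.0135), and averaged 94.6 ± 25.3 CPM in the mutant soleus against 39.9 ± 13.97 in WT. Also higher in the soleus were Ciart (1.65), Per2 (1.42), Per3 (0.94), Hlf (0.85), Tef (0.48), Nr1d2 (0.47), Bhlhe41 (0.45) and Cry2 (0.44), while Npas2 (-1.18) and the core activator gene Arntl (-0.78) were lower. Without the high-Foxo1 pair, 2 of the 15 (Nr1d2 and Npas2) were called in the soleus, against 5 of all 19625 genes tested. Dbp then stood at 1.08 (adjusted p = 0.0507). The soleus median of the list was 0.47 with the pair and 0.35 without it. At an unadjusted p under 0.05 stood 10 higher and 3 lower genes with the pair, against 18.5% of all genes. Without the pair there were 9 and 3, against 3710 of the 19625 genes tested. The part of the clock genes in the Klf15 difference was not tested.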

How the data were processed

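RNA of whole TA and soleus muscles was sequenced without strand information in 36 libraries. The authors trimmed reads with Trimmomatic, used GSNAP for alignment to GRCm38 (mm10), and obtained gene counts from htseq-count. The deposited values are whole-number counts for 51912 Ensembl IDs, with no normalization, in 1 table per muscle. The annotation release and the counting mode are not given in the sources used here. No column of other samples was present (0). Symbols were found for 51633 IDs. Samples were grouped by their labels, which do not say that libraries with one number come from one animal, and the paper gives 1 muscle per animal, so p-values measure the spread among libraries. The members and gene lists were chosen with earlier results of these data known.

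Counts were tested in R 4.3.3 with edgeR 4.0.16 (filterByExpr with minimum count 10 and total 15, TMM, glmQLFit, glmQLFTest), by muscle for genotype and over 36 libraries for muscle and interaction. A call requires a p-value below 0.05 after Benjamini-Hochberg adjustment and, except for the interaction, a 1.2-fold change. P-values are adjusted over all genes tested. Correlations used log2 CPM (prior count 2) with 100000 permutations within genotype. The methods were tested on simulated data. The text names all members. Of each list it names the called genes, or else the 2 with the smallest p in each muscle, and of Fbxo32, Trim63 and Klf15 the 3 most alike genes. A denervation response gene that this rule names in the TA is not reported here. Genes shown for the high-Foxo1 pair were chosen after their values were seen. DESeq2 1.42.0, limma 3.58.1, RLE factors, other filters, blocks, a depth covariate and leaving out each library were tried.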

Additional observations from a re-analysis of the deposited data

Results flagged for a closer look

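Among the 40 combinations of gene and group, 1 held a library far from the rest, and chance gives about 1 such group in 20. In WT TA, Fbxo31 stood at 108 CPM in replicate 5, whereas the other 8 libraries lay between 137 and 164 CPM. The same library was the lowest of WT TA for Trim63, Foxo1, Foxo3 and Klf15, and its TMM factor of 0.811 was the lowest of the 36. Without it, the TA genotype differences were 0.08 for Fbxo31, 0.48 for Foxo1, 0.32 for Foxo3 and 0.20 for Klf15 on the log2 scale, with edgeR adjusted p values of 0.444, 0.286, 0.226 and 0.259. The part of the library in those differences was not tested further.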

How the results depend on the processing

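Of the results for single members, 1453 kept their side of the threshold, 14 passed it only under an alternative and 13 lost it. None of those past the threshold changed sign. Some of the 1453 did change sign without passing it. Among them were the soleus genotype differences of Foxo1 and Foxo3, at -0.05 and -0.02 without the high-Foxo1 pair. The count of members called for genotype in the soleus, 0, became 1 (Klf15) with DESeq2, 1 with limma-voom and 1 in a single fit over 36 libraries, and ranged from 0 to 2 when 1 library was left out, with 2 (Fbxo31 and Klf15) without WT soleus replicate 1 or 2 and 1 (Klf15) without ∆Ig3-MuSK soleus replicate 7 or 9. The correlation of Fbxo32 with Trim63 without the 2 farthest libraries had an r of 0.44 (TA) and 0.54 (soleus), where fewer libraries were tested. Leaving out the high-Foxo1 pair was chosen after seeing the data.

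Over all genes, calls for the TA went from 3 to 225 (DESeq2), 150 (limma-voom), 10 (no filter on low counts), 11 (depth covariate), 692 (single fit) and 1 (without the pair). Those for the soleus went from 185 to 486 (DESeq2), 653 (limma-voom), 0 (depth covariate), 312 (single fit) and 5 (without the pair), and from 22 to 602 when 1 library was left out. Interaction calls went from 0 to 1049 (DESeq2) and 9 (label number as a random block), and to as many as 1450 when 1 library was left out. The causes were not tested.

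The replicate numbers did not pair the samples: same-numbered WT and mutant libraries correlated at -0.189 to 0.562 in the TA and -0.366 to 0.433 in the soleus, with 3 of 9 above 0.1 in each. With replicate as a block, members called were 0 for the TA, 0 for the soleus and 0 for the interaction, 5 for muscle in WT and 3 in ∆Ig3-MuSK, where Foxo3 had an adjusted p = 0.0573. All genes called were 0 in the TA and 347 in the soleus. TA and soleus libraries with one label number correlated at 0.0385 to 0.419, with 12 of 16 above 0.1.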
